A study of Mus musculus with 8 samples.

Results

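The 10 genes described here act in the unfolded protein response, the signalling that a cell starts when misfolded protein builds up in the endoplasmic reticulum (ER). They are Hspa5, Hsp90b1, Dnajb9, Herpud1, Ern1, Xbp1, Atf6, Atf4, Ddit3 and Trib3. How open their chromatin was had been profiled with ATAC-seq, whose transposase inserts into accessible DNA, in type 1 conventional dendritic cells (cDC1s), the subset that primes CD8 T cells with tumour antigen. Sorting took these cells from tumours of B16-OVA, a melanoma line made to express ovalbumin, grown in wild-type mice. The groups were 4 libraries of day 21 tumours and 4 of day 7 tumours. Separate animals per library are not stated, and the p values below therefore cover library-to-library spread, which may be technical.

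A region was taken for a gene when its centre lay in the gene body, or within 50 kb of it with an end of that gene as the nearest end of any protein-coding gene. This gave 81 of the 128057 regions, for 9 of the 10 genes. Atf4, which encodes a transcription factor of the PERK arm, received no region by this rule and is not analysed here. The same rule gave at least 1 region to 17104 protein-coding genes in all.

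Sensors in the ER membrane start the response. IRE1, encoded by Ern1, splices the mRNA of the transcription factor XBP1. ATF6 is cut in the Golgi and releases a transcription factor, and PERK slows translation and favours that of ATF4. The chaperone BiP, encoded by Hspa5, binds the sensors in unstressed cells and is itself a main target of the response. In cDC1s, which carry a large ER, IRE1 and XBP1 are known to be active without added stress.

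ATF6 and XBP1 act on target genes through short ER stress elements in promoters, so promoter sequences are shown first. The RefSeq promoter table, built on GRCm38.p6 (mm10 is that assembly), had a window from 250 bases before to 50 bases after the start for 9 of the 10 genes (Atf6 had none). 5 motifs were searched on both strands of these windows. Only exact matches to the letters below were counted, so variants of an element are not included. The ER stress element ERSE is CCAAT, 9 bases of any kind and CCACG, and stood in 0.119% of all 32851 promoter windows. ERSE-II is ATTGG, 1 base and CCACG (0.0365% of windows), and the XBP1 core element is TGACGTGG (0.676%). The element bound by ATF4 with C/EBP factors is TGATGNAA (3.97%), and the cyclic AMP element is TGACGTCA (1.79%). Hspa5 had 1 ERSE at positions -65 to -47 from the start, and Hsp90b1 had 1 at -212 to -194 and another, on the other strand, at -107 to -89. Herpud1 had an ERSE-II at -52 to -42 and an ATF4 element at -112 to -105. The sole other match was an ATF4 element of Trib3, 15 to 22 bases past the start. No matches overlapped each other. The 250 bases before the start are printed 5′ to 3′ for the 3 genes with an ER stress element and for Ddit3, which had none of the 5 motifs and was the only one of 7 genes whose start region passed the threshold below. Capitals mark the matches.
Hspa5 (chr2:34771840-34772089, plus strand): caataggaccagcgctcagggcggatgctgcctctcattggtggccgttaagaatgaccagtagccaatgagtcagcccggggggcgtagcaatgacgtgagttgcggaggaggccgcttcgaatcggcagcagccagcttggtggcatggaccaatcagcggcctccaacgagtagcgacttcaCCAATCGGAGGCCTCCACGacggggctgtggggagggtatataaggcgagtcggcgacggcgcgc
Hsp90b1 (chr10:86705445-86705694, minus strand): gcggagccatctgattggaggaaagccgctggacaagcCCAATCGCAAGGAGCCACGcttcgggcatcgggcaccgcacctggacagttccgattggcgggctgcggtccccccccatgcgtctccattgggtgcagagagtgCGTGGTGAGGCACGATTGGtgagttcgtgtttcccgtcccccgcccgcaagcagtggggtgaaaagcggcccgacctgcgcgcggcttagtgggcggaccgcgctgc
Herpud1 (chr8:94386179-94386428, plus strand): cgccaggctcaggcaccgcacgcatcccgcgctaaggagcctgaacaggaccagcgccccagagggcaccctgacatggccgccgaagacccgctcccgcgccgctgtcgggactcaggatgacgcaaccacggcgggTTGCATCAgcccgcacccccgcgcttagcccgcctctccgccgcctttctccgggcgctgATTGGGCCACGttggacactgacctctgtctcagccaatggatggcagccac
Ddit3 (chr10:127290543-127290792, plus strand): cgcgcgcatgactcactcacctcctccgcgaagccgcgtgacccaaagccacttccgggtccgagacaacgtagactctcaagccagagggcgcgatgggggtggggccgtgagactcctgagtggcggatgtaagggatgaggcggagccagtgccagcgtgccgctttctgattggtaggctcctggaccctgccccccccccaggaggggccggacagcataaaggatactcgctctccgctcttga
A match describes letters and does not show that a factor was bound.

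Depth was 14021151 to 27737040 counts per library at day 21, against 9440223 to 16063736 at day 7. Accessibility is given as CPM, the counts of a region scaled by the total of its library with TMM factors. Regions and gene sums were tested with the quasi-likelihood test of edgeR, with p adjusted by the Benjamini-Hochberg method over all regions or all genes tested, with 0.05 as the threshold and n = 4 per day throughout. Loci of cDC1 genes were open in both groups. The regions of Clec9a, a cDC1 receptor for dead cells, summed to 102 ± 8.05 CPM at day 21 and 74.4 ± 3.97 CPM at day 7, and those of Irf8, the lineage factor of cDC1s, to 266 ± 7.81 and 276 ± 2.32 CPM (SD). Xcr1, another defining gene of cDC1s, is not analysed here. The day 21 samples had more counts at cDC1 marker loci (2870 to 3020 CPM at day 21 and 2610 to 2740 CPM at day 7, summed over 14 genes). They had fewer at T and NK cell loci (417 to 452 and 483 to 506 CPM over 16 genes) and at melanoma loci (435 to 454 and 463 to 491 CPM over 8 genes). Of the 14 cDC1 genes 7 were higher, 1 was lower and 6 did not pass. Of the T and NK cell genes 1 was higher, 6 were lower and 9 did not pass. Of the melanoma genes 0 were higher, 4 were lower and 4 did not pass. Among all gene sums 14.5% were higher and 19.1% lower. Macrophage and monocyte loci summed to 598 to 613 CPM at day 21 and 559 to 608 CPM at day 7 over 15 genes, of which 3 were higher, 1 was lower and 11 did not pass. The higher ones were C1qc and C1qa, complement genes of macrophages, and Csf1r, the receptor for their growth factor. C1qc had 8.76 ± 1.77 CPM at day 21 and 3.96 ± 0.611 CPM at day 7 (1.14 ± 0.18, edgeR adjusted p = 1.38e-06), C1qa had 3.42 ± 0.339 and 2.11 ± 0.193 CPM (0.70 ± 0.25), and Csf1r had 78.6 ± 2.21 and 66.7 ± 1.38 CPM (0.23 ± 0.06). Whether these shifts had a part in the results below was not tested. In such sorted bulk samples, a changed number of cells of a type and a changed accessibility per cell cannot be told apart.

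At day 21, 15 of the 81 regions of unfolded protein response genes were higher than at day 7 and 5 were lower, while 61 did not pass the threshold. This is 18.5% higher and 6.17% lower, beside 9.5% higher, 9.86% lower and 19.4% in either direction among all 121865 regions tested. A gain of 2-fold or more that passed the threshold was seen in 7 of the 81, against 1.6% of all regions. Of the 7, 5 were those of Hspa5. Hspa5 supplied 5 of the higher regions. Leaving out every region of Hspa5, its start region included, 13.3% of the other 75 regions were higher and 6.67% lower. All 81 passed the filter on low counts, and their median log2 fold change was 0.12, against 0.002 over all regions. Day 21 and day 7 separated fully in 18 of them, where 19.8% of all regions showed no overlap.

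**Figure D1:**
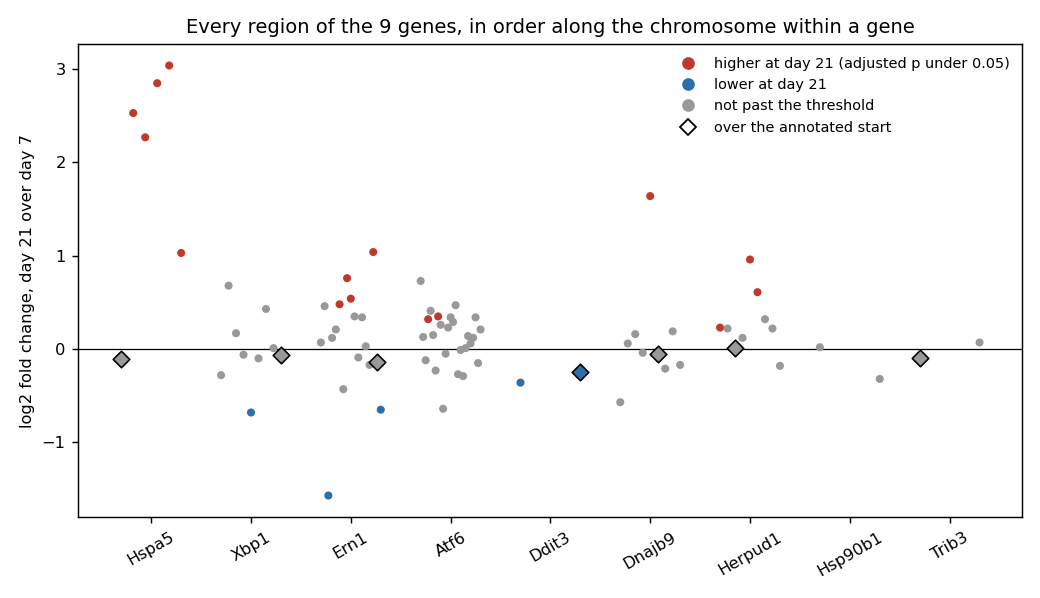
Log2 fold change (day 21 over day 7, y axis) of each of the 81 regions, grouped by gene on the x axis. Each point is 1 region, red where it was higher at day 21, blue where lower and grey where it did not pass. Diamonds mark the regions over an annotated start. The 5 downstream regions of Hspa5 lie between 1.03 and 3.04, and all 7 diamonds lie between -0.25 and 0.01.

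None of the called gains lay over an annotated start, where gains were also rare among all regions. Of the 7 regions over an annotated start, that of Ddit3 was lower and 6 did not pass. Among all regions over a start, 4.33% were higher and 23.2% lower. In the gene bodies 6 of 38 regions were higher and 1 lower, where 10.6% and 7.99% of all such regions were. In the flanks 9 of 36 were higher and 3 lower, where 9.3% and 9.06% of all such regions were. The downstream regions of Hspa5 are 5 of these 9, so this count is not independent of the rule that pointed to them. Among the flank regions of genes with a known strand, 10 lay within 10 kb past the far end of a gene. Of these, 8 were higher while 2 did not pass. The downstream regions of Hspa5, to which the rule had pointed, are 5 of the 8, and without them 3 of 5 were higher. Of all regions in such a position 9.98% were higher and 7.98% lower. This 10 kb window was chosen after the values were seen. Atf6 is missing from these counts because its strand was not known here. Its flank regions beside its lower annotated end (chr1:170696489-170696755 and chr1:170702320-170702802) did not pass (0.73 ± 0.45 and 0.13 ± 0.20, edgeR adjusted p = 0.27 and 0.704).

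Hspa5 encodes BiP, the most abundant chaperone of the ER. The gene lies at chr2:34772090-34776529 on the plus strand, and its last part overlaps Rabepk, which encodes a protein that binds the vesicle traffic factor RAB9 and runs on the opposite strand. The region over the Hspa5 start (chr2:34771601-34772727), which holds the ERSE printed above, had 102, 107, 103 and 105 CPM at day 21, against 105, 112, 117 and 115 CPM at day 7. The days overlapped there, and the change did not pass (log2 fold change -0.11 ± 0.06 SE, edgeR adjusted p = 0.182).

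Past the end of Hspa5 stood 5 regions inside the body of Rabepk, spread over 6758 bp. They began 1134 bp past the end of Hspa5 and reached 7.89 kb past it. Each of them was higher at day 21 with no overlap between the days. Because the rule that defined this group of genes pointed to this flank with earlier results known, its gain is not independent evidence of a pattern. The first (chr2:34777663-34778866), which also covers the pseudogene LOC115489640, had 20.2, 35.2, 39.2 and 32.7 CPM at day 21, against 6.16, 4.58, 3.81 and 7.04 CPM at day 7. These rest on 287 to 915 counts per library at day 21 and 43 to 113 at day 7. Day 21 replicate 1 was the lowest of its group and still above every day 7 library. The log2 fold change was 2.53 ± 0.14 (edgeR adjusted p = 4.32e-23), which put the region 12th by p among all those tested.

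The second region (chr2:34779341-34780026) had 15.0, 28.1, 31.5 and 27.5 CPM at day 21, against 5.16, 4.90, 5.08 and 5.98 CPM at day 7 (2.27 ± 0.14, edgeR adjusted p = 3.81e-20). The third (chr2:34780534-34780856) had 7.20, 10.5, 11.2 and 9.78 CPM at day 21, against 1.83, 0.426, 1.78 and 1.18 CPM at day 7 (2.85 ± 0.23, edgeR adjusted p = 6.59e-16). Again day 21 replicate 1 was the lowest of its day in both. The fourth (chr2:34781520-34781642) changed by 3.04 ± 0.33 on 32 to 111 counts at day 21 and 5 to 8 at day 7. The fifth (chr2:34784134-34784421) changed least, by 1.03 ± 0.20 (edgeR adjusted p = 5.81e-05), with 7.13, 5.97, 5.62 and 6.67 CPM at day 21 and 3.50, 2.34, 2.71 and 3.68 CPM at day 7. In this one, day 21 replicate 1 was the highest library.

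Summed, the 5 regions had 51.8, 85.0, 92.2 and 80.6 CPM at day 21, against 17.1, 12.8, 14.0 and 18.3 CPM at day 7. The ratio of the means was 4.98, and 5.53 without day 21 replicate 1. The exact two-sided permutation p was 0.0286, the smallest that 4 against 4 libraries can give. Each region had already separated the days, so this p was fixed in advance and adds no support. Per kb of region, the first flank region had 26.4 CPM at day 21 and 4.49 CPM at day 7, while the start region of Hspa5 had 92.7 and 99.8 CPM. The flank was therefore less open than the start on both days.

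The gain ended before the start of Rabepk. The next region along its body (chr2:34790241-34790914) had 9.45 to 10.9 CPM at day 21 and 8.52 to 10.8 CPM at day 7 (0.00 ± 0.13, edgeR adjusted p = 0.988). The region over the Rabepk start (chr2:34799621-34800079) had 19.2 to 24.8 CPM at day 21 and 18.6 to 22.8 CPM at day 7 (0.06 ± 0.10, edgeR adjusted p = 0.728). The days overlapped in both. Over its 7 regions, 5 of them shared with Hspa5, Rabepk summed to 109 ± 20 CPM at day 21 and 46.4 ± 4.74 CPM at day 7 (1.23 ± 0.08, edgeR adjusted p = 1.65e-19). A gain of 2-fold or more that passed the threshold was seen in 0.519% of all gene sums.

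**Figure D2:**
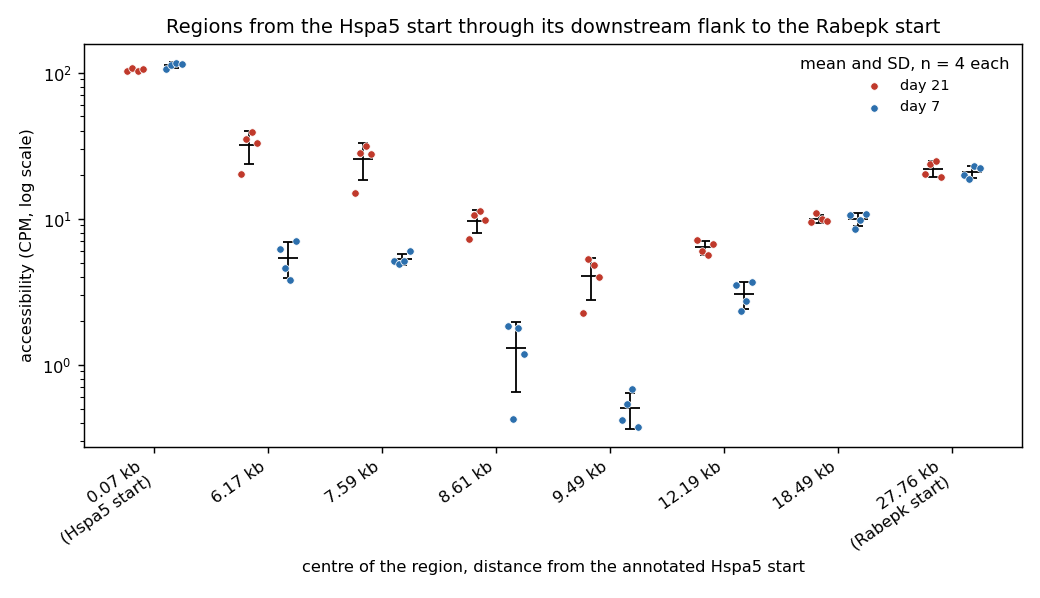
CPM per library (y axis, log scale) in the regions from the Hspa5 start to the Rabepk start, named on the x axis by the distance of their centre from the Hspa5 start. Red points are the 4 day 21 libraries and blue points the 4 day 7 libraries, with bars for mean and SD. The 5 regions between 6.17 and 12.2 kb separate the days, while the 2 starts and the region before the Rabepk start do not.

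Summed over its 6 regions, Hspa5 was higher at day 21 by 0.51 ± 0.05 (edgeR adjusted p = 2.86e-11), the smallest p among the 9 genes. It had 154, 192, 195 and 186 CPM at day 21, against 122, 125, 131 and 134 CPM at day 7. The sum rests on the flank inside Rabepk: without regions in another gene it was -0.11 (edgeR adjusted p = 0.0955). The start region held 66.4, 55.7, 52.8 and 56.6% of the counts of the gene at day 21 and 86.0, 89.8, 89.3 and 86.3% at day 7, with no overlap (exact permutation p = 0.0286, 0.0667 after adjustment over 7 genes). This share restates the gain of the flank and is no separate evidence. Outside these genes, the 5 gene sums whose log2 CPM followed that of Hspa5 most closely over the 8 libraries were Rnf144b, Cd24a, P2ry6, Smc4 and Sema3d, with Pearson r between 0.990 and 0.994. These r values describe the best of all genes tested, and a difference between the days is enough to raise them.

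Among all gene sums tested 14.5% were higher and 19.1% lower. Of the 9 genes, Hspa5, Ern1, Atf6 and Herpud1 were higher, Ddit3 was lower, and Xbp1, Dnajb9, Hsp90b1 and Trib3 did not pass. The median of the 9 was -0.05, against -0.025 over all genes. Taking regions at gene ends alone, none of the 4 gains passed (edgeR, also at an unadjusted p under 0.05), and Ddit3 remained lower.

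**Figure D3:**
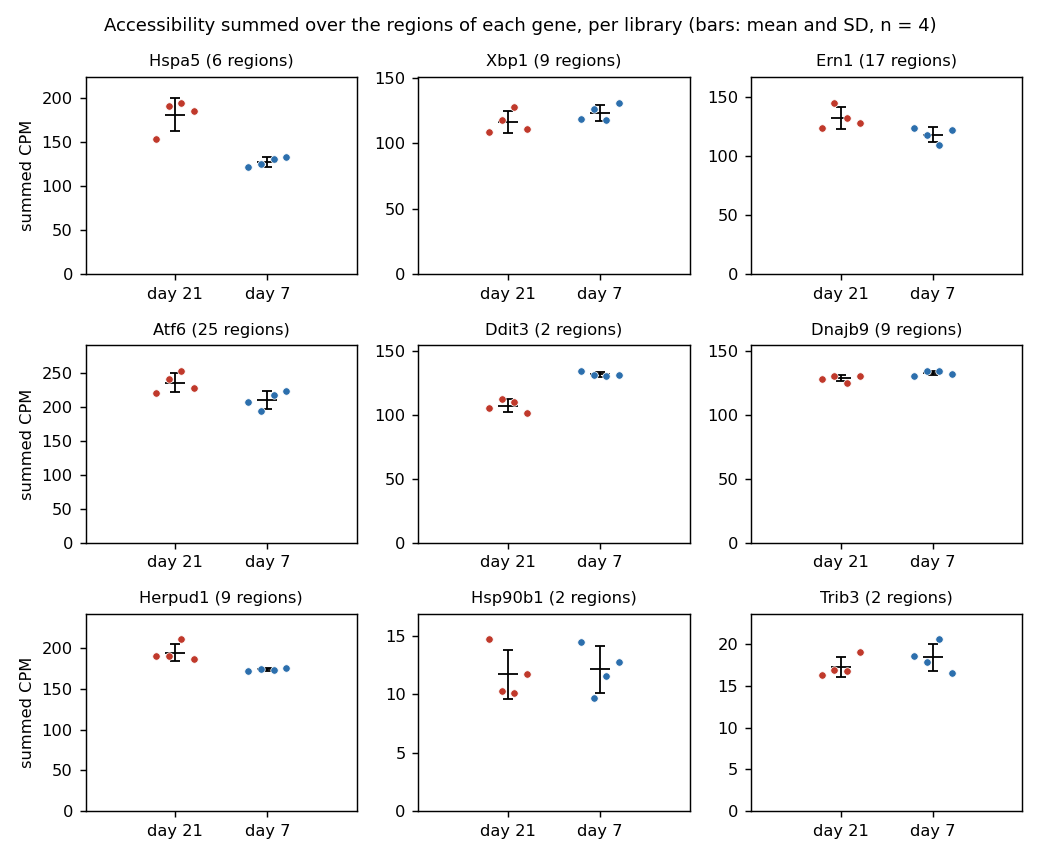
CPM summed over the regions of each of the 9 genes (y axis, from 0), 1 panel per gene, with 1 point per library, day 21 on the left and day 7 on the right, and bars for mean and SD (n = 4). The days separate without overlap for Hspa5, Ddit3 and Herpud1, where 29.1% of all gene sums did so.

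Herpud1 encodes an ER membrane protein of the machinery that removes misfolded protein, and is a target of both ATF6 and ATF4. Its region over the start (chr8:94386013-94387698) had 86.9, 90.5, 94.4 and 84.6 CPM at day 21, against 83.6, 86.9, 88.7 and 93.7 CPM at day 7 (0.01 ± 0.06, edgeR adjusted p = 0.916). The days overlapped over the ERSE-II. A region 2.12 kb past the end of the gene (chr8:94397279-94397712) had 9.88, 8.99, 9.70 and 8.92 CPM at day 21, against 5.41, 4.16, 4.82 and 4.74 CPM at day 7 (0.96 ± 0.16, edgeR adjusted p = 4.83e-06). The next one, 3.32 kb past the end (chr8:94398426-94398956), had 13.0, 10.8, 11.2 and 12.7 CPM at day 21 and 8.83, 7.89, 7.53 and 7.23 CPM at day 7 (0.61 ± 0.14, edgeR adjusted p = 6.49e-04). All 4 day 21 libraries were above all 4 day 7 libraries in both.

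A region 9.36 kb before the Herpud1 start (chr8:94376719-94377421) had 42.3, 46.6, 55.6 and 45.3 CPM at day 21 and 40.8, 43.4, 37.4 and 40.4 CPM at day 7 (0.23 ± 0.08, edgeR adjusted p = 0.0235). It lost its call without day 21 replicate 3 (0.13, adjusted p = 0.246), without day 7 replicate 3 (0.106) and without day 7 replicate 4 (0.0587). The Herpud1 sum was higher by 0.16 ± 0.05 (edgeR adjusted p = 0.00373), with 190, 191, 211 and 187 CPM at day 21 and 172, 175, 173 and 176 CPM at day 7. With gene body regions alone it was 0.01 (edgeR adjusted p = 0.874). The start region held 45.7 ± 1.17% of the counts at day 21 and 50.7 ± 1.99% at day 7, with no overlap (exact permutation p = 0.0286, adjusted 0.0667). Like that of Hspa5, this share uses the same counts as the regions and is no separate evidence. The other 6 regions lay between -0.18 and 0.32.

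Hsp90b1 encodes GRP94, the ER form of HSP90, which folds Toll-like receptors and integrins. The region over its start (chr10:86705064-86706750), which covers both of its ERSE matches, has its centre nearer to the end of Ttc41 and so falls outside the rule. It had 130, 144, 143 and 134 CPM at day 21, against 136, 145, 143 and 140 CPM at day 7 (-0.03 ± 0.05, edgeR adjusted p = 0.742). The 2 regions the rule gave to Hsp90b1 were weak ones, 4.59 and 5.28 kb past its far end, and their sum was 11.7 ± 2.12 CPM at day 21 and 12.2 ± 2.03 CPM at day 7 (edgeR adjusted p = 0.709).

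Dnajb9 encodes ERdj4, a co-chaperone of BiP and a classic target of XBP1. Its start region (chr12:44209479-44210847) had 98.7, 103, 103 and 100 CPM at day 21, against 104, 103, 106 and 107 CPM at day 7 (-0.05 ± 0.05, edgeR adjusted p = 0.571). A weak region 3.57 kb past its end (chr12:44202187-44202466) had 1.13, 1.81, 1.30 and 1.5 CPM at day 21, against 0.5, 0, 0.677 and 0.561 CPM at day 7 (1.64 ± 0.47, edgeR adjusted p = 0.00813). The days did not overlap there, but 1 day 7 library had no count, so the size of this change is poorly set. The sum of its 9 regions did not pass (-0.05 ± 0.05, edgeR adjusted p = 0.484).

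Of the sensors, Ern1 had 17 regions, of which 4 were higher and 2 lower. All 4 higher ones lay in the gene body. The region 1.60 kb after the start (chr11:106486022-106486366) had 7.69, 8.87, 9.58 and 9.28 CPM at day 21, against 5.16, 3.84, 3.64 and 4.49 CPM at day 7 (1.04 ± 0.17, edgeR adjusted p = 2.55e-06). Further into the gene, regions at 26.3, 29.0 and 59.5 kb from the start changed by 0.54 ± 0.12, 0.76 ± 0.19 and 0.48 ± 0.13. The days did not overlap in any of these 4.

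A region 71.4 kb into Ern1 (chr11:106416046-106416788) went the other way, with 1.83, 1.33, 0.946 and 0.785 CPM at day 21, against 3.83, 2.98, 3.72 and 3.49 CPM at day 7 (-1.57 ± 0.28, edgeR adjusted p = 2.55e-05). A second lower region 3.82 kb before the start (chr11:106491483-106491741, -0.65 ± 0.22, edgeR adjusted p = 0.0233) lost its call when any of 4 libraries was left out: day 7 replicate 2 (0.0663) or 4 (0.0569), or day 21 replicate 3 (0.0838) or 4 (0.0917). The start region itself (chr11:106487198-106488165) had 27.5, 38.6, 34.6 and 32.5 CPM at day 21 and 37.0, 37.2, 33.6 and 38.9 CPM at day 7 (-0.14 ± 0.08, edgeR adjusted p = 0.255).

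The Ern1 sum was higher by 0.16 ± 0.05 (edgeR adjusted p = 0.0123), with 124 to 145 CPM at day 21 and 109 to 124 CPM at day 7. The days met at 124 CPM, and the call was lost without day 7 replicate 3 (0.0918) or day 21 replicate 2 (0.102). The start held 25.1 ± 1.96% of the counts of Ern1 at day 21 and 31.0 ± 0.951% at day 7, with no overlap (exact permutation p = 0.0286, adjusted 0.0667). This share uses the same counts as the regions above and is no separate evidence.

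**Figure D4:**
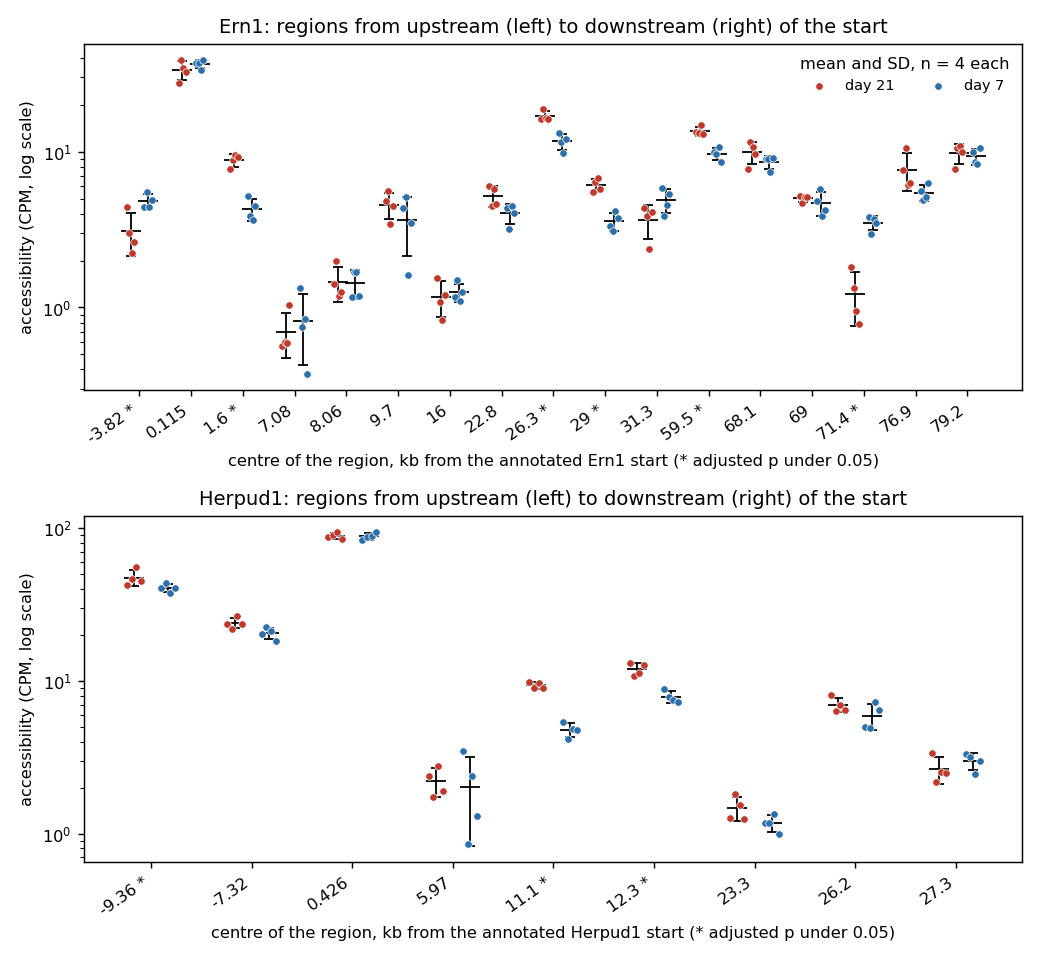
CPM per library (y axis, log scale) in each region of Ern1 (upper panel) and Herpud1 (lower panel), ordered by distance from the annotated start in kb; asterisks mark regions past the threshold. Red points are day 21 and blue points day 7, with bars for mean and SD (n = 4). At Ern1 the days separate in body regions such as that at 1.60 kb, at Herpud1 in the regions at 11.1 and 12.3 kb, and they overlap at both starts.

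Atf6 had 25 regions, 2 of them higher. The stronger gain (chr1:170709090-170710116, gene body) had 36.7, 41.9, 42.6 and 41.4 CPM at day 21, against 32.8, 30.4, 33.5 and 33.4 CPM at day 7 (0.32 ± 0.08, edgeR adjusted p = 0.00132). The other (chr1:170742346-170743069, 0.35 ± 0.13, edgeR adjusted p = 0.0404) lost its call without any of 6 libraries, with an adjusted p of 0.0547 without day 21 replicate 4, 0.0623 without replicate 1, 0.0715 without replicate 2 and 0.0958 without replicate 3. Without day 7 replicate 1 it was 0.173 and without day 7 replicate 2 it was 0.129. The call was also lost with DESeq2 (adjusted p = 0.0577) and with trended offsets (0.28, edgeR adjusted p = 0.110), and held in 7 of 15 alternatives. The sum of all 25 was higher by 0.16 ± 0.05 (edgeR adjusted p = 0.00513), with 221, 241, 253 and 228 CPM at day 21 and 207, 194, 218 and 223 CPM at day 7. These overlapped. A region at the upper annotated end of Atf6 (chr1:170868395-170868898) had 18.5 to 22.9 CPM at day 21 and 15.3 to 20.1 CPM at day 7 (0.21 ± 0.10, edgeR adjusted p = 0.150). Eif2ak3, which encodes the sensor PERK and is not among the 10 genes, had 205 ± 8.71 CPM at day 21 and 218 ± 7.75 CPM at day 7 (-0.09, edgeR adjusted p = 0.129).

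Xbp1 had 9 regions. That over the start (chr11:5520561-5522338) had 54.3, 57.8, 63.4 and 52.2 CPM at day 21, against 59.1, 58.4, 55.9 and 63.6 CPM at day 7 (-0.06 ± 0.07, edgeR adjusted p = 0.587). The only one to pass lay 14.6 kb before the start (chr11:5505855-5506197) and had 4.37, 4.65, 5.38 and 4.6 CPM at day 21, against 6.0, 7.46, 9.81 and 7.23 CPM at day 7 (-0.68 ± 0.17, edgeR adjusted p = 0.00265). The day 21 libraries were all below the day 7 libraries. The Xbp1 sum was 116 ± 8.56 CPM at day 21 and 123 ± 6.28 CPM at day 7 (-0.09 ± 0.05, edgeR adjusted p = 0.177). Without day 21 replicate 3 it passed as lower (-0.15, adjusted p = 0.0144).

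Ddit3 encodes CHOP, a transcription factor of prolonged ER stress that promotes cell death. It was the only one of the 9 genes whose sum passed the threshold as lower. Both of its regions also lie in the body of Mbd6, so they cannot be assigned to Ddit3 alone. The region over the start (chr10:127290248-127290945) had 54.6, 61.9, 60.7 and 56.4 CPM at day 21, against 76.6, 70.5, 65.9 and 64.8 CPM at day 7 (-0.25 ± 0.07, edgeR adjusted p = 0.00388). The other, 1.63 kb before the start (chr10:127288658-127289676), had 50.5, 50.5, 49.5 and 44.2 CPM at day 21, against 57.5, 60.3, 64.4 and 66.2 CPM at day 7 (-0.36 ± 0.07, edgeR adjusted p = 6.05e-05). Neither overlapped between the days. The sum had 105, 112, 110 and 101 CPM at day 21, against 134, 131, 130 and 131 CPM at day 7 (-0.30 ± 0.05, edgeR adjusted p = 2.36e-06). Among all start regions 23.2% were lower.

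Trib3 encodes a pseudokinase induced by ATF4 and CHOP. Its start region (chr2:152343386-152344327) had 14.0, 15.7, 15.1 and 17.4 CPM at day 21, against 17.1, 15.8, 18.9 and 15.3 CPM at day 7 (-0.10 ± 0.11, edgeR adjusted p = 0.586). Per kb, this was the least open of the 8 start regions, at 16.5 ± 1.52 CPM per kb on day 21 and 17.8 ± 1.74 on day 7. At day 21 the order per kb ran Hspa5, Ddit3, Hsp90b1, Dnajb9, Herpud1, Ern1, Xbp1 and Trib3, from 92.7 ± 1.81 CPM per kb down. The order was the same at day 7. Ddit3 and Hsp90b1 overlapped at day 21, Hspa5 and Ddit3 at day 7, and Ern1 and Xbp1 on both days.

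Wider lists of the pathway were counted by their gene sums, beside the 14.5% higher and 19.1% lower among all genes. These lists were chosen with earlier results of these data known. Of 23 measured ER chaperones and folding enzymes 1 was higher, Uggt1, the glucosyltransferase that senses misfolded glycoproteins (0.21 ± 0.05, edgeR adjusted p = 3.23e-04), and 4 were lower, among them Fkbp2 (-0.23 ± 0.05) and Hspa13 (-0.21 ± 0.06). The other 18 did not pass, and the list median was -0.05. Of 23 genes of ER-associated degradation 2 were higher and 8 lower (median -0.10). The higher ones were Derl1, a channel component (24.7 ± 0.317 CPM at day 21 and 15.7 ± 1.76 CPM at day 7, 0.66 ± 0.10, edgeR adjusted p = 2.34e-07), and Ube2j1, an ER ubiquitin-conjugating enzyme (0.40 ± 0.06). Edem1, a lectin that sorts glycoproteins for degradation, was lower (-0.20 ± 0.05).

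Of 21 sensors and regulators other than the members 1 was higher and 4 were lower (median -0.08). Rtcb, the ligase that joins the spliced Xbp1 mRNA, was higher (72.9 ± 2.68 CPM at day 21 and 60.1 ± 3.22 CPM at day 7, 0.28 ± 0.06, edgeR adjusted p = 2.08e-04). Traf2, an adaptor of IRE1 signalling, was lower (-0.34 ± 0.06), as was Mbtps1, a protease that cuts ATF6 (-0.24 ± 0.07). Of 29 genes of translocation into the ER and export from it, 5 were lower and 24 did not pass (median -0.03); those with the smallest p were Sec11a (-0.26 ± 0.07), Sec23b (-0.18 ± 0.06) and Spcs3 (-0.15 ± 0.05). Of 25 integrated stress response targets 4 were higher and 8 lower (median -0.02). Cebpg, a partner of ATF4, was higher (0.35 ± 0.06), as was Chac1, an enzyme that degrades glutathione (0.30 ± 0.07), while Tes, a focal adhesion protein, was lower (-0.28 ± 0.05). Over these 5 lists 8 of 121 genes were higher, 29 lower and 84 did not pass.

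Among 20 immediate early genes, which tissue dissociation can also induce, 12 were higher at day 21, 2 were lower and 6 did not pass, with a median of 0.16. Over all gene sums 14.5% were higher and 19.1% lower. Their regions summed to 5950 to 6600 CPM at day 21 and 4990 to 5250 CPM at day 7. Atf3, a stress-induced factor that ATF4 also drives, had 474, 557, 527 and 468 CPM at day 21, against 309, 302, 309 and 321 CPM at day 7 (0.71 ± 0.05, edgeR adjusted p = 4.43e-19). Fos changed by 0.57 ± 0.04 and Dusp1, a phosphatase of stress kinases, by 0.56 ± 0.05. Whether dissociation had a part in the gains near Hspa5, Herpud1 and Ern1 was not tested.

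**Figure D5:**
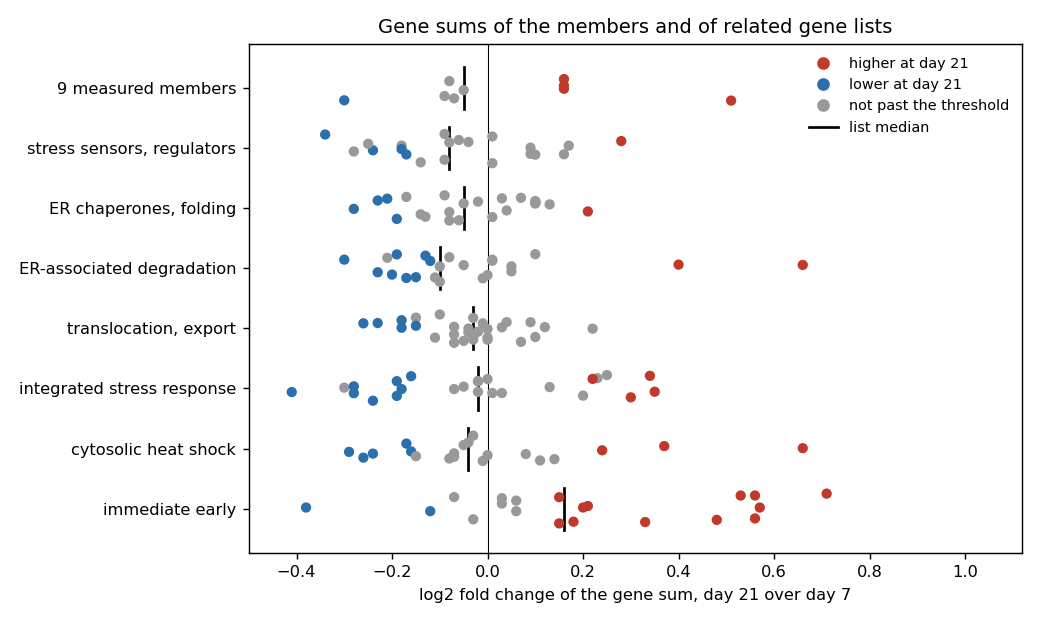
Log2 fold change of gene sums (day 21 over day 7, x axis) for the 9 measured members and 7 related lists (rows), with 1 point per gene, red where higher, blue where lower and grey where it did not pass, and a black line at the list median. Vertical position within a row is random, and the cytosolic heat shock row also holds 2 mitochondrial chaperonins and 2 transcription factors. The medians of the ER and integrated stress response lists lie between -0.10 and -0.02, and that of the immediate early genes at 0.16.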

How the data were processed

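The authors deposited raw counts for 128057 regions common to all 8 libraries, without normalization. The submitters' processing notes name MACS2 2.1.0.20150603, bedtools, SAMtools, Picard 1.65 and cutadapt 1.9, and the builds GRCm38 and mm10. The aligner, the read filters, the merging of peaks, any shift of insertion positions and whether reads or insertions were counted are not given in the sources used here. Groups and replicate numbers came from the labels. Region coordinates are printed as deposited, and whether they count from 0 or 1 is not given.

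Regions were assigned with the RefSeq gene table of GRCm38.p6, which has neither exons nor untranslated regions, so gene bodies are not split into exons and introns. Strands and starts came from the RefSeq promoter table. Gene sums add the counts of all regions of a gene, and a region can count for more than 1 gene. edgeR 4.0.16 in R 4.3.3 was run on 121865 regions and 16955 gene sums after filterByExpr, with TMM factors of the regions (0.978 to 1.01), the day as the only term, glmQLFit and glmQLFTest. The common biological coefficient of variation was 0.133 for regions. Standard errors were taken as the absolute log2 fold change over the root of the F statistic. Shares were compared by exact permutation over 70 relabelings (SciPy 1.17.1). The fits were tested on simulated data. Alternatives used limma-voom 3.58.1, DESeq2 1.42.0, other scalings and filters, other region rules, and each library left out.

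The 10 genes, the lists and the tests were chosen with earlier results of these data known. Named were the 10 genes with their regions past the threshold, over a start or with the most counts, Rabepk, the 3 called genes of lowest p in each list, and the 5 genes most like Hspa5. Eif2ak3 and the example marker genes were picked with their values known. Lists with genes not measured here are given by their measured genes.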

Additional observations from a re-analysis of the deposited data

Results flagged for a closer look

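In 86 groups of 4 libraries (gene sums, regions and shares described above), 4 had 1 library set apart from the other 3 by more of the group's range than Dixon's 95% critical value. Chance sets 1 apart in about 1 of 20 such groups. The Herpud1 sum had 211 CPM in day 21 replicate 3, where the next highest was 191 CPM. The Ddit3 region 1.63 kb before its start had 44.2 CPM in day 21 replicate 4, where the next lowest was 49.5 CPM. The Ern1 region 26.3 kb into the gene had 18.8 CPM in day 21 replicate 2, where the next highest was 16.4 CPM. The start region of Trib3 held 88.1% of the gene's counts in day 7 replicate 2, where the next lowest share was 91.8%.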

How the results depend on the processing

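Every called region of Hspa5 kept its direction and its call in 15 alternatives, and the Ddit3 sum in 17. The count of member regions ran from 14 to 16 higher and from 4 to 6 lower. With each library left out in turn, 3 or 4 member genes were higher and 1 to 2 lower, where day 21 replicate 3 gave the 2. Counts of gene sums rest on which regions are summed. With gene bodies alone 6 member genes were tested, of which 2 were higher and 0 lower (edgeR, 2 and 1 at an unadjusted p under 0.05). Without flank regions in another gene 8 were tested and 0 were lower (edgeR, 1 at an unadjusted p under 0.05). Ddit3 was not tested in either setting, since both of its regions are flank regions that lie in Mbd6. The gene that was lower at an unadjusted p was therefore not Ddit3. With gene ends alone 0 were higher, and 911 of all 13569 genes tested, against 2453 of 16955 with all regions. The Hspa5 sum reversed to -0.11 in these 3 settings, and the Ern1 sum to -0.14 with gene ends alone. Values that did not pass changed sign elsewhere: the Hsp90b1 sum (-0.18 to 0.02 with a library left out), the start regions of Dnajb9 (0.05) and Hspa5 (0.00) with trended offsets, and that of Herpud1 (-0.01 with limma-voom, -0.03 to 0.04 with a library left out). An Hsp90b1 flank region moved to -0.03 with trended offsets and ran from -0.05 to 0.14 with a library left out. Replicate numbers did not pair the libraries: same-numbered deviations correlated by at most 0.00975, and 1 of 4 day 21 libraries correlated best with its own number. With the replicate number as a block 16 member regions were higher and 5 lower, and 4 member genes higher and 1 lower. Weak regions rest on few counts, so small changes there were not detectable at this depth.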

Other observations

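A list of 20 heat shock genes outside the ER held mostly cytosolic chaperones and co-chaperones, and also the mitochondrial chaperonins Hspd1 and Hspe1 and the transcription factors Hsf1 and Hsf2. At day 21, 3 were higher, 5 lower and 12 did not pass, with a median of -0.04, where 14.5% of all gene sums were higher and 19.1% lower. Those 4 genes and Hsp90ab1, a cytosolic HSP90, were the lower ones. Hspa8, the constitutive cytosolic relative of Hspa5, had 261, 299, 222 and 286 CPM at day 21, against 197, 221, 202 and 209 CPM at day 7 (0.37 ± 0.05, edgeR adjusted p = 2.36e-07), with no overlap. Hsp90aa1, the inducible cytosolic HSP90, was higher too, with 163 ± 11.2 CPM at day 21 and 138 ± 7.34 CPM at day 7 (0.24 ± 0.05, edgeR adjusted p = 1.00e-04). Hsf2, a heat shock transcription factor, was lower, with 75 ± 1.31 CPM at day 21 and 90.1 ± 2.84 CPM at day 7 (-0.26 ± 0.05, edgeR adjusted p = 8.96e-05).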
